A study of Caenorhabditis elegans with 2 samples.

Results

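The genes described here encode the proteins of the mitochondrial ribosome of the nematode Caenorhabditis elegans. They were taken as all protein-coding genes whose symbol starts with mrpl- (large subunit) or mrps- (small subunit) in the WBcel235 (ce11) annotation, which gave 70 genes of 19973 nuclear protein-coding genes, 41 for the large and 29 for the small subunit. The measurement is binding of TBP-1, the worm TATA-binding protein, by chromatin immunoprecipitation and sequencing of whole animals. All animals were of strain OP746, which carries the unc-119(tm4063) mutation and the integrated transgene wgIs746, a tbp-1 gene tagged with TY1, EGFP and 3xFLAG beside a rescuing unc-119(+) copy. They were collected as young adults of both sexes at 65 hours, after bleaching and starvation at the first larval stage, and the tagged protein was precipitated with an antibody against GFP. The tagged protein thus comes from a transgene, and a peak sums over all tissues of the animal. There were 2 biological replicates of this 1 group and no second condition, so every value below describes positions in the genome of the same animals, and no p-value compares conditions.

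Mitochondrial ribosomes translate the few proteins, all of the respiratory chain and ATP synthase, that mitochondrial DNA itself encodes. Their own proteins are encoded in the nucleus, made in the cytosol and imported. TBP binds core promoters, where it helps to place RNA polymerase. Many worm genes lie in operons, in which a single promoter upstream of the first gene serves several genes in a row on the same strand, and the transcript is then cut apart and each downstream piece receives a spliced leader. A downstream gene of an operon as a rule has no promoter of its own.

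The authors' reproducible list was made with IDR, the irreproducible discovery rate, which scores how well peak ranks repeat between replicates. The peaks kept were the top of the pooled list by signal, and some of them ranked far apart in the replicates. Separate lists of 30000 peaks each, background included, were given for replicate 1, replicate 2 and both pooled. A gene was called when the summit of a peak, its highest point, was at most 500 bp away from an annotated transcript start (5' end) of that gene. Where several were in reach, the strongest was taken. Ranks are by the authors' signal value within a list, with 1 for the strongest, and the strongest peaks of a replicate means as many from the top of its list as the reproducible list holds. The number of reads behind the lists is unknown. Ranges after a share are its exact 95% Clopper-Pearson interval, which covers the counting of genes, some of which share a peak, and not biological replication.

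Reproducible TBP-1 summits lay at 17 of the 70 mitochondrial ribosomal protein genes (24.3%, 95% interval 14.8% to 36%), and over all protein-coding genes at 2035 of 19973 (10.2%). They lay at 9 of 41 large subunit genes (22%, 10.6% to 37.6%) and at 8 of 29 small subunit genes (27.6%, 12.7% to 47.2%), so the intervals of both subunits overlapped over most of their length. No member (0 of 70) had a tRNA, snoRNA or snRNA gene starting within 500 bp of it. Without genes near such ends the share over all protein-coding genes was 9.4%. The 17 genes shared 16 peaks. By chromosome, summits lay at 6 of 22 members on III (27.3%, with 14.7% over all its protein-coding genes), 4 of 11 on IV (36.4%, with 12.1%) and 3 of 10 on V (30%, with 6.87%). They lay at 2 of 12 members on II (16.7%, with 9.57%) and 2 of 15 on I (13.3%, with 14%), and chromosome X held no member.

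At each of the 17 genes the summit lay upstream of the annotated 5' end, as it did at 85.6% of all called protein-coding genes. Their median position was -161 bp (range -377 to -37 bp, n = 17), against -179 bp over all 2035 called protein-coding genes, negative values being upstream. At 14 of the 17 genes the summit lay 100 to 250 bp upstream, a stretch that held 36.1% of the summits of all called protein-coding genes. This stretch was not among the planned measures and brackets most of the members' own positions, so both shares are a description and not a test. The median was -177 bp at the 9 large subunit genes and -132 bp at the 8 small subunit genes, with overlapping ranges (-377 to -102 bp and -220 to -37 bp). The annotated leader, from the 5' end to the start codon, had a median of 5 bp at these 17 genes. Whether these annotated ends are sites of initiation or of trans-splicing was not tested, and initiation sites were not measured here. The summit lay between protein-coding genes at 15 of the 17 genes, and in an exon of the neighbouring gene at 2, F54C4.4 beside mrpl-40 and sws-1 beside mrps-35.

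**Figure D1:**
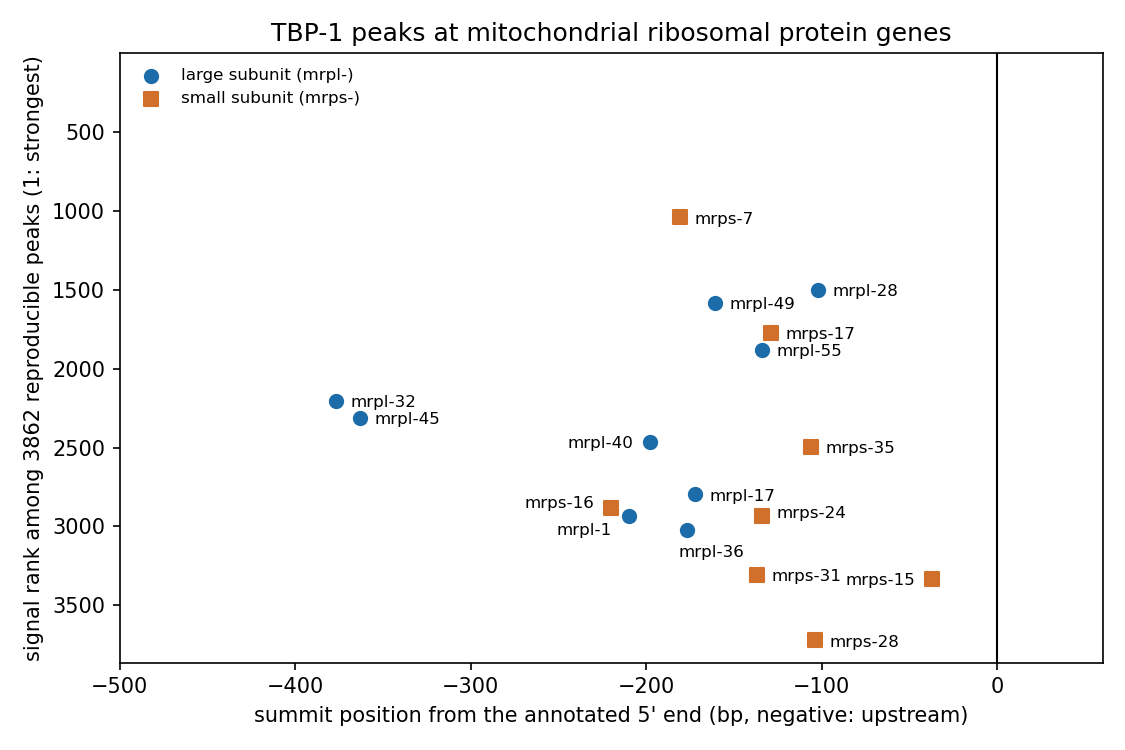
Summit position from the annotated 5' end (x axis, bp) and signal rank among the reproducible peaks (y axis, 1 at the top) for the 17 mitochondrial ribosomal protein genes with a summit, circles for the large and squares for the small subunit. Most summits sit 100 to 250 bp upstream, mrpl-32 and mrpl-45 lie farther upstream, and mrps-7 has the highest rank, 1042.

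The peaks were of middle to low strength within the list. Their median rank was 2498 (range 1042 to 3721), against 2092 over all called protein-coding genes, which corresponds to signal percentiles of 35.3 and 45.8. Counted by peak and without peaks near tRNA, snoRNA, snRNA or rRNA ends, the median percentile was 35.8 for the 16 peaks at members and 40.4 for the 1560 peaks with protein-coding ends. The strongest lay at mrps-7, a small subunit gene on chromosome IV, with the peak from 14767788 to 14768000, rank 1042 and the summit at -181 bp. It ranked 1064 in replicate 1 and 1051 in replicate 2. The large subunit genes mrpl-28 (chromosome II, 156035 to 156178) and mrpl-49 (chromosome V, 12728391 to 12728543) followed at ranks 1500 and 1586. Then came mrps-17 (chromosome III, 6431762 to 6432091) at rank 1776 and mrpl-55 (chromosome IV, 443686 to 444015) at rank 1879. Each of these 5 genes was called from the strongest peaks of both replicates, with ranks of 1433 and 1796 for mrpl-28, 1981 and 1702 for mrpl-49, 2236 and 1944 for mrps-17, and 1791 and 3026 for mrpl-55 in replicates 1 and 2. The stronger 50% of the reproducible peaks gave only these 5 of the 70 genes (7.14%, 2.36% to 15.9%), near the 4.56% over all protein-coding genes.

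The stretches from 25 bp before the summit to the last base before the annotated 5' end are shown for these 5 genes, since they carry the strongest peaks of the set. They were read from the RefSeq copy of WBcel235 (ce11), 5' to 3' on the strand of the gene, and overlap no annotated exon. The single capital is the base under the summit. Longer capitals mark CGCAAAC or its reverse complement GTTTGCG, a word described under the other observations.
mrps-7 (chrIV:14767731-14767936, minus strand): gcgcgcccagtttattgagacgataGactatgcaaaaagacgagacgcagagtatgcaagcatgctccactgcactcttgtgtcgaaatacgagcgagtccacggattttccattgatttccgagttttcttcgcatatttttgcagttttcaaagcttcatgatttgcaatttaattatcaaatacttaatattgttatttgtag
mrpl-28 (chrII:156010-156136, minus strand): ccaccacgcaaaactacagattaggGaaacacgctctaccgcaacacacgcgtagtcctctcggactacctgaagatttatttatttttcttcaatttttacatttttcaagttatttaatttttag
mrpl-49 (chrV:12728445-12728630, plus strand): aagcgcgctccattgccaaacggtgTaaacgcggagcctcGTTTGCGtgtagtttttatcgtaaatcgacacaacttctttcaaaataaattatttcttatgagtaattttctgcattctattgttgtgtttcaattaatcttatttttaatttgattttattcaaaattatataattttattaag
mrps-17 (chrIII:6431799-6431952, minus strand): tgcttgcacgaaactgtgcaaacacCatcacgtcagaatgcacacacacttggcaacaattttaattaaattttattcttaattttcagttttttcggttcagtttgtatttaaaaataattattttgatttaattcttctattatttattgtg
mrpl-55 (chrIV:443826-443984, plus strand): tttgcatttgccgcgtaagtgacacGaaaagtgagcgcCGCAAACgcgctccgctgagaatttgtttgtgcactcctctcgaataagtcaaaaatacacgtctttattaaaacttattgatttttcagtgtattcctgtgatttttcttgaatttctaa
In each of the 5, GC content was higher in the first 50 bases, around the summit (48% to 58%), than in the last 50 bases before the gene (8% to 24%). Neither TATAAA nor TATATA lies within 100 bp of these 5 summits.

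Over all 16 peaks at members, TATAAA, the core of the TATA box, was found on either strand within 100 bp of 3 summits (18.8%), against 18.3% of the 1560 reproducible peaks with protein-coding and no tRNA, snoRNA, snRNA or rRNA ends in reach, and 16% of all reproducible peaks. Within 50 bp it was found at 0 of the 16, against 7.31% and 6.97%. TATATA was found within 100 bp of 0 of the 16, against 4.49% and 5.41%. The windows of 201 bp around the summits had a median GC content of 35.8% (range 29.4% to 42.3%) at members, 40.3% at the peaks with protein-coding ends and 42.3% at all peaks. The 3 windows with TATAAA were those of mrps-16, mrpl-36 and the peak shared by mrps-24 and mrpl-1. The stretches of mrps-16 and mrps-24 are shown because the word lies in them, between summit and gene, and that of mrpl-36 because it shares a longer word with the mrps-24 stretch. Longer capitals mark TATAAA or its reverse complement TTTATA, the splice acceptor word TTTCAG where it ends within 10 bp of the gene, and the words GAGCGCACTTGCAA, GTCCGCAAACACCG and CGCAAAC. Where marked words touch or overlap, their capitals run together.
mrps-16 (chrII:5474128-5474372, plus strand): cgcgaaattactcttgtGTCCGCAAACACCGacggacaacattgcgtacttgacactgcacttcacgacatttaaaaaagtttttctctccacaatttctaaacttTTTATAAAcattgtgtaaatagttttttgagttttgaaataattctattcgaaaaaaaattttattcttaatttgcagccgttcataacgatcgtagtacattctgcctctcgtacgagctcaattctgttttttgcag
mrps-24 (chrIV:7709886-7710044, plus strand): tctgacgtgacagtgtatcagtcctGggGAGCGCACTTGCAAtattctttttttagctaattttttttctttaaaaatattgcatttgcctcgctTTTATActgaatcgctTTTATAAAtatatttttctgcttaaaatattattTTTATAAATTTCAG
mrpl-36 (chrIII:9848117-9848318, minus strand): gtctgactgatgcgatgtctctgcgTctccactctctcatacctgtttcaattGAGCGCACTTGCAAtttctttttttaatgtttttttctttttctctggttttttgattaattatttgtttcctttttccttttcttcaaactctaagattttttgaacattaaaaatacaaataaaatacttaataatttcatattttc
A match is a description of these letters and not a binding site. In the mrps-16 stretch the summit base falls within the first marked word, and in the mrps-24 stretch TTTCAG ends at the last base before the gene.

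The splice acceptor word TTTCAG, on the strand of the gene and ending within 10 bp of an annotated 5' end, was found at 36 of the 70 members (51.4%), against 5566 of 19973 protein-coding genes (27.9%). It was found at 10 of the 17 members with a summit (58.8%) and at 26 of the 53 without (49.1%). Among members directly behind another gene on the same strand, by the operon-like rule given below, 10 of 27 had it (37%), against 26 of 43 others (60.5%). Over all protein-coding genes the shares were 23.9% and 28.8%.

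The peak was often shared with the gene on the other side. Within 500 bp of the summit, 11 of the 17 members had the 5' end of another protein-coding gene, in each case with at least 1 on the opposite strand, a head-to-head arrangement in which a peak cannot be given to either gene (64.7%, 38.3% to 85.8%). Over all called protein-coding genes 36.2% had such an opposite-strand end in reach. With a window of 250 bp, which called 15 members, the count of members that shared their peak was 6. The count thus depends on the window, and no share over all protein-coding genes is given for the narrower one. The partner of mrpl-49 was rpl-28, which encodes a protein of the cytosolic ribosome. That of mrps-15 was asg-1, which encodes a subunit of the mitochondrial ATP synthase, and that of mrpl-17 was vbh-1, which encodes a DEAD-box RNA helicase. The partner of mrps-17 was txdc-9, that of mrps-35 was sws-1, and those of mrpl-40, mrpl-45, mrps-7 and mrps-28 were F54C4.4, Y119D3B.12, Y57G11C.3 and Y43F8C.7. No other protein-coding end was in reach of the peaks of mrpl-28, mrpl-32, mrpl-36, mrpl-55, mrps-16 and mrps-31.

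A large and a small subunit gene faced each other across a single peak. The peak on chromosome IV from 7709746 to 7710075, rank 2932, had a summit -134 bp from mrps-24 on the plus strand and -210 bp from the 5' end of the longer transcript of mrpl-1 on the minus strand. It ranked 3456 in replicate 1 and 5581 in replicate 2. This end of mrpl-1, at 7709701, lies inside emc-6, which starts at 7709736 on the same strand and encodes a subunit of the endoplasmic reticulum membrane complex, and a shorter mrpl-1 transcript starts at 7709084. The peak is therefore also 175 bp upstream of emc-6, and mrpl-1 could be read as lying behind it.

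The replicates ranked the members' peaks differently in the weaker part of the list. All 17 genes were called from the strongest peaks of replicate 1 and 10 of them from those of replicate 2. Both replicates called 75.2% of the 2035 protein-coding genes with a reproducible summit. The median rank of the 17 genes was 2818 in replicate 1 (range 1064 to 3735) and 3155 in replicate 2 (range 1051 to 14320), and at 12 of the 17 genes the peak was weaker by rank in replicate 2. Over all called protein-coding genes 58.1% were weaker there. The largest gaps were at mrpl-36, with ranks of 2479 and 14320 in replicates 1 and 2, and at mrps-28, with 3724 and 12004. Their −log10 q values in the replicate 2 list were 0.466 and 0.621, against 4.01 for both in replicate 1. The genes mrps-31 (3094 and 7055), mrpl-17 (2921 and 4097), mrps-16 (2818 and 4258), mrps-24 and mrpl-1 were the others called by replicate 1 and not by replicate 2. Summit positions were closer than ranks: the summits of both replicates lay a median of 14 bp apart at the 17 genes (range 2 to 89 bp).

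**Figure D2:**
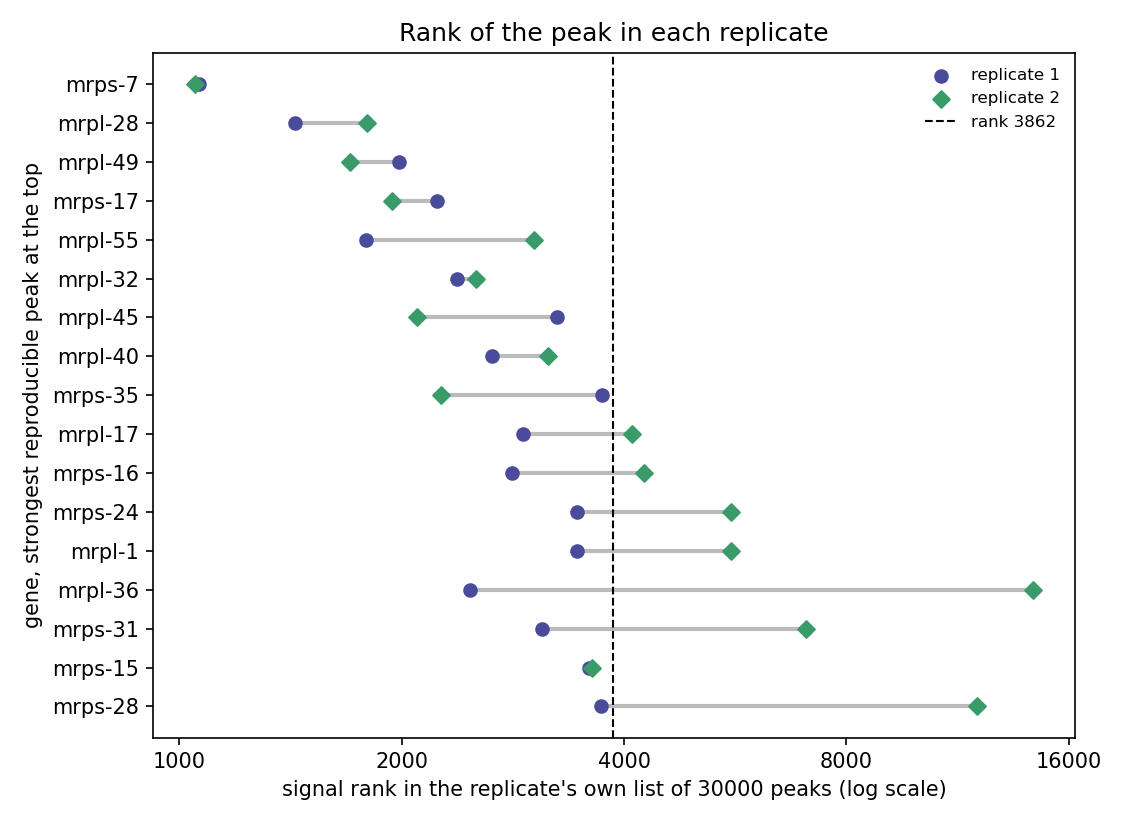
Signal rank of the peak at each of the 17 genes with a reproducible summit, in the list of replicate 1 (circles) and of replicate 2 (diamonds), on a log scale with the strongest peaks at the left, and a dashed line at the last rank of the reproducible list. The replicates lie close together for mrps-7, mrpl-32 and mrps-15, while replicate 2 lies right of the line for 7 genes, farthest for mrpl-36 at 14320.

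Each replicate's own strongest peaks called 18 of the 70 genes in replicate 1 (25.7%), with 10.1% over all protein-coding genes, and 13 in replicate 2 (18.6%), with 9.6%. Both replicates called 10 genes (14.3%, 7.07% to 24.7%), with 7.75% over all protein-coding genes. These 10 were mrps-7, mrpl-28, mrpl-49, mrps-17, mrpl-55, mrpl-32, mrpl-45, mrpl-40, mrps-35 and mrps-15. Replicate 1 alone also called mrpl-39, at rank 3849 with the summit at -118 bp. Replicate 2 alone called 3 genes, mrpl-9 (rank 3111, -111 bp), mrps-6 (rank 3351, 74 bp) and mrps-14 (rank 3746, -40 bp).

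The members nearest to the threshold of the list were mrps-28, at rank 3721 inside it, and mrpl-39, at rank 3868 of the pooled list just outside it, with the summit at -128 bp. Next outside it were mrpl-50 (pooled rank 3942, summit at 10 bp), mrpl-9 (4242, -130 bp), mrpl-13 (4899, 56 bp) and mrps-23 (5017, -47 bp). At the edge of the window, the summits of mrpl-32 and mrpl-45 lay inside it at -377 and -363 bp. Outside it were those of mrpl-12 at -530 bp (rank 1544) and mrpl-15 at -604 bp (rank 1236), both stronger than most called members, and those nearest to mrpl-23 (940 bp) and mrps-21 (-990 bp).

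Mitochondrial ribosomal protein genes often lay directly behind another gene on the same strand. A gene was counted as operon-like downstream when the next protein-coding gene upstream on its strand ended at most 500 bp before it, a rule of distance and not an annotation of operons. It held for 27 of the 70 members (38.6%, 27.2% to 51%), 15 of the large and 12 of the small subunit, and for 18.6% of all protein-coding genes. The gap had a median of 105 bp at the 27 members (range 25 to 460 bp) and 168 bp over all such genes. It lay between 80 and 120 bp, the narrow spacing known of worm operons, at 19 of the 27 members and at 25.1% of all operon-like downstream genes. The genes directly upstream include fars-1 (a phenylalanyl-tRNA synthetase subunit) before mrpl-23, cct-2 (a chaperonin subunit) before mrpl-50, misc-1 (a mitochondrial carrier) before mrpl-41, prmt-5 (an arginine methyltransferase) before mrps-26 and dap-3 before mrps-22. The dap-3 product is itself a protein of the small mitochondrial subunit in mammals. In a chain on chromosome V, natc-1 was followed by mrps-2 and mrps-2 by mrpl-4, so that a small and a large subunit gene lay in the same row.

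The called members were, but for 1, genes that were not operon-like downstream. A reproducible summit lay at the own 5' end of 16 of the 43 members that were not operon-like downstream (37.2%, 23% to 53.3%), with 10.3% over all such protein-coding genes, and of 1 of the 27 downstream members (3.7%, 0.0937% to 19%), with 9.68%. That 1 gene was mrpl-32, 410 bp behind rpn-3, with ranks of 2380 and 2524 in replicates 1 and 2. Counting mrpl-1 as a downstream gene of emc-6 would add a second. With a gap of at most 200 bp, 0 of 20 downstream members had a summit, against 7.71% of all 2048 such genes. Among the members that were not downstream, 8 of 26 large subunit genes (30.8%) and 8 of 17 small subunit genes (47.1%) were called, with wide and overlapping intervals (14.3% to 51.8% and 23% to 72.2%).

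For 12 of the 27 downstream members a reproducible summit lay at the 5' end of the first gene of the chain (44.4%, 25.5% to 64.7%), with 19.9% over all operon-like downstream genes. It did so for 6 of 15 large and 6 of 12 small subunit genes. These first genes were rpn-3 (a proteasome subunit, before mrpl-32, rank 780), clsp-1 (before mrpl-54, rank 1000), F29B9.11 (before mrps-21, rank 1078), atp-2 (the beta subunit of the ATP synthase, before mrps-26, rank 1463), F21D5.7 (before mrps-33, rank 1695), natc-1 (before mrps-2 and mrpl-4, rank 2238), znf-706 (before mrpl-42, rank 2413), W04B5.5 (before mrpl-30, rank 2627), eif-3.E (a translation initiation factor subunit, before mrps-30, rank 2641), W04D2.4 (before mrps-11, rank 2905) and tag-124 (before mrpl-53, rank 3013). The median position of the summit was -231 bp from the first gene (range -463 to 1 bp), and that gene's 5' end a median of 3502 bp upstream of the member's (range 684 to 7234 bp). Of these 11 first genes, 9 were called from the strongest peaks of both replicates. The other two, eif-3.E (rank 6482) and tag-124 (rank 4520), were not called in replicate 2. At 9 of the 11 an opposite-strand protein-coding 5' end was also in reach, among them eef-2, a translation elongation factor gene, beside clsp-1 and hsp-110 beside rpn-3.

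With a summit at the own 5' end or at the first gene of the chain, 28 of the 70 members were called (40%, 28.5% to 52.4%), with 13.2% over all protein-coding genes. The count was 14 of 41 large subunit genes (34.1%) and 14 of 29 small subunit genes (48.3%). For 15 downstream members neither place had a summit. They include mrps-5, a small subunit gene whose knockdown is known to lengthen worm lifespan, which lies 103 bp behind sel-1, and mrps-22 behind dap-3 in a chain that starts at rpb-6. The mrps-5 gene had no summit within 500 bp in the pooled list or in replicate 1, and one at -201 bp of rank 27102 of 30000 in replicate 2. The peak at sel-1 ranked 16168 in the pooled list.

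**Figure D3:**
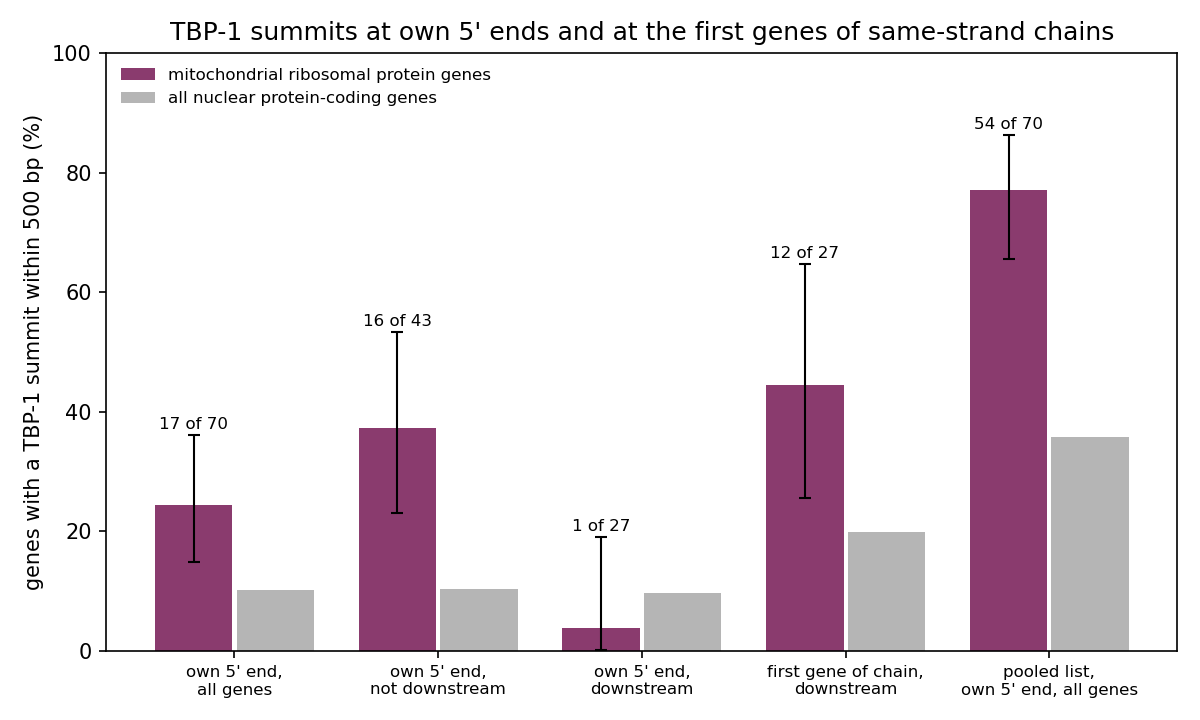
Share of genes with a TBP-1 summit within 500 bp (y axis, percent) among mitochondrial ribosomal protein genes (dark bars, with exact 95% binomial intervals and counts) and all nuclear protein-coding genes (grey bars), at the own 5' end for all genes, for genes that are not operon-like downstream and for those that are, at the first gene of the chain for downstream genes, and at the own 5' end in the pooled list of 30000 peaks. Summits lay at 16 of 43 members that were not downstream and at 1 of 27 that were.

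The gaps upstream of 3 downstream members without a reproducible summit at the own 5' end are shown whole, beside the promoter stretches above, because they are all the sequence between the genes: natc-1 to mrps-2, mrps-2 to mrpl-4 and sel-1 to mrps-5. They were read in the same way and contain no annotated exon. Capitals mark TTTCAG within 10 bp of the gene, which only the mrpl-4 gap holds, and TTTATA.
mrps-2 (chrV:8465570-8465685, plus strand): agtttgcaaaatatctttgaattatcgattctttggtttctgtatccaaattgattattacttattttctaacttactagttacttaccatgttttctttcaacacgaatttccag
mrpl-4 (chrV:8467160-8467264, plus strand): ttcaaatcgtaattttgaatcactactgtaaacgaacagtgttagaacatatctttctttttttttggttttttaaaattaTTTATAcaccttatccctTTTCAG
mrps-5 (chrV:12563384-12563486, plus strand): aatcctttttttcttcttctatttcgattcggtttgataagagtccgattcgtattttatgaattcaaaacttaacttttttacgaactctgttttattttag
The gaps are 116, 105 and 103 bp long. Summits at the 17 called members lay at a median of -161 bp (range -377 to -37 bp), some of them within such a distance. Whether the length of a gap bears on a summit was not tested.

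In the lists of 30000 peaks, which hold background by their own description, most members had a summit in reach. The pooled list gave 54 of 70 (77.1%, 65.6% to 86.3%), with 35.8% over all protein-coding genes. Replicate 1 gave 54 of 70, with 36.9%, and replicate 2 gave 57 of 70 (81.4%), with 36.5%. By subunit the pooled list gave 27 of 41 large (65.9%, 49.4% to 79.9%) and 27 of 29 small subunit genes (93.1%, 77.2% to 99.2%). The replicate lists set them closer together, at 30 of 41 and 24 of 29 in replicate 1 and 32 of 41 and 25 of 29 in replicate 2. In the pooled list, 22 of the 27 downstream members (81.5%) and 32 of the 43 others (74.4%) had a summit, with 45.8% and 33.5% over all protein-coding genes. No list gave a summit for 8 members, mrpl-11, mrpl-15, mrpl-16, mrpl-21, mrpl-37, mrpl-46, mrpl-54 and mrps-18B.

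The 37 members with a summit in the pooled list and none in the reproducible list had a median pooled rank of 10510 (range 3868 to 25548) and a median −log10 q of 0.986 (range 0.244 to 3.96). For all protein-coding genes of this kind the median rank was 11517. The positions of these weak summits overlapped widely between downstream and other members, and their difference was not tested. At 21 downstream members their median position was 56 bp inside the gene (interquartile range -39 to 146 bp), and 14 of the 21 lay at or behind the 5' end. At 16 other members it was -113 bp (-162 to 105 bp), and 10 of the 16 lay upstream. Over all protein-coding genes of this kind the medians were 2 bp at downstream and -83 bp at other genes, in the same order.

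Counted in steps of 100 bp from the 5' end of the gene model, whichever peak was the strongest, the pooled list placed a summit 101 to 200 bp upstream at 18 of the 43 members that were not downstream (41.9%), with 6.71% over all such protein-coding genes. At downstream members the fullest steps were the first 100 bp of the gene, at 8 of 27 (29.6%), and the next 100 bp, at 6 of 27 (22.2%). Over all downstream protein-coding genes these steps held 10.3% and 6.66%. In the reproducible list, 12 of the 43 members (27.9%) had a summit 101 to 200 bp upstream, with 2.29% over all such genes.

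**Figure D4:**
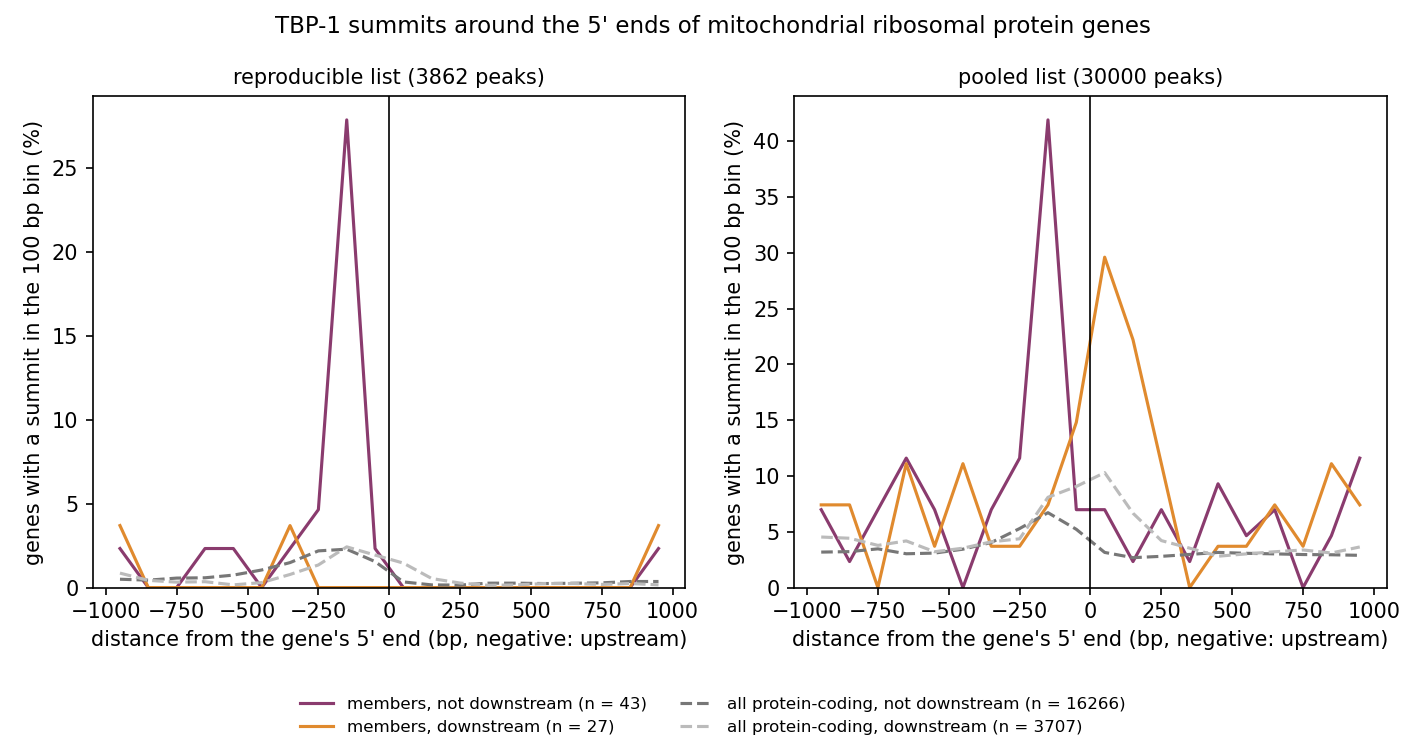
Share of genes with a summit in each 100 bp bin (y axis, percent) against distance from the 5' end of the gene model (x axis, bp, negative upstream), for members that are not operon-like downstream, downstream members, and all protein-coding genes of both kinds, in the reproducible list (left) and the pooled list (right). Members that are not downstream peak just upstream of the 5' end, at 27.9% and 41.9%, and downstream members in the pooled list peak just inside the gene, at 29.6%.

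The count of called members moved with the window and the rule of assignment, as did that over all protein-coding genes. A window of 250 bp gave 15 of 70 members (21.4%), with 6.38% over all protein-coding genes, and 1000 bp gave 21 (30%), with 13.5%. With 5' ends of gene models the count was again 17, with 9.5%, and with the whole peak interval in place of the summit it was 18, with 11.4%. With each summit given only to its nearest 5' end of any gene class it was 13 (18.6%), with 6.89%. In the pooled list, windows of 250 and 1000 bp gave 49 and 59 members, with 26.2% and 43.1%.

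Other nuclear genes for mitochondria are given as context, from lists chosen by symbol. Of 12 genes for the expression of mitochondrial DNA, 3 had a reproducible summit: tufm-1 and tufm-2, which encode mitochondrial translation elongation factors (-223 and -142 bp, ranks 3227 and 3249), and mtss-1, which encodes a mitochondrial single-stranded DNA-binding protein (-201 bp, rank 2663). None was called at rpom-1 (mitochondrial RNA polymerase), polg-1 (DNA polymerase gamma), hmg-5 or dap-3. Of 8 protein import genes with symbols starting tomm- or timm-, 3 had one, tomm-20 (-268 bp, rank 1074), timm-23 (-247 bp, rank 2090) and timm-17B.1 (-139 bp, rank 3511). The last lies in a chain that starts at the cytosolic ribosomal protein gene rpl-20. Of 10 genes of mitochondrial stress and proteases, 4 had one, clpp-1 (rank 634), hsp-6 (rank 1211), ubl-5 (rank 2607) and ymel-1 (rank 3694), and atfs-1 and hsp-60 had none. Of these called genes, clpp-1, ubl-5 and ymel-1 were operon-like downstream, and 1 of the 6 genes that were not downstream was called. Of 81 cytosolic ribosomal protein genes 66 had one (81.5%), and 9 of the 81 (11.1%) were operon-like downstream. Of these 9, rla-1, rpl-16, rpl-19, rpl-27, rps-7, rps-16 and rps-17 had a summit at the own 5' end, and rpl-25.1 and rps-2 had none. The low share at downstream mitochondrial ribosomal protein genes was thus not seen at the cytosolic ribosomal protein genes or the genes of mitochondrial stress and proteases. Of the genes for the expression of mitochondrial DNA, 4 were operon-like downstream, dap-3, hmg-5, mma-1 and mrrf-1. None of these had a summit at the own 5' end, against 3 of the 8 that were not downstream. Of the 2 downstream import genes, timm-17B.1 had one and tomm-7 had none. These counts are small and were not tested. Among the cytosolic ribosomal protein genes that were not downstream, 59 of 72 (81.9%, 71.1% to 90%) were called. The share of mitochondrial ribosomal protein genes of that kind was 37.2% (23% to 53.3%). Genes that share a peak are counted separately, and the peak of rpl-28 and mrpl-49 counts in both groups. The difference was not tested.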

How the data were processed

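Peak lists from TBP-1 chromatin immunoprecipitation of 2 biological replicates were used. Per the deposited file descriptions, all are narrowPeak lists on ce11. The authors derived each list of 30000 peaks from a replicate's or both replicates' alignments and a control alignment, and the reproducible peaks from these lists by IDR. Peak caller and aligner were not given in the sources used here. In all lists the authors' signal values, deposited with no stated scale or normalization, served to rank peaks of 1 list. The deposited −log10 q value was 3.96 for every reproducible peak. Depth is unknown. The reproducible peaks were exactly the top of the pooled list by signal.

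Gene models were those of Ensembl release 115 (WBcel235, the same build as ce11). No peak passed a chromosome end. The 12 protein-coding genes on mitochondrial DNA were left out. Sequences came from the RefSeq copy of that build. Scripts used Python 3.11.15, numpy 2.4.6, scipy 1.17.1, pandas 2.3.3 and matplotlib 3.10.9. Summit assignment was tested on simulated data, where all 200 planted summits were assigned to their genes.

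The members, lists and rules were chosen with earlier results of these data known, so no set test was made. Named were all members with a summit, mrps-5, the 5 next strongest, members called in 1 replicate, genes sharing a peak and first genes of chains. Genes outside this rule, such as those upstream in a chain, edges of the window and context genes, were named after their values were seen.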

Additional observations from a re-analysis of the deposited data

How the results depend on the processing

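No paired analysis was possible because the series holds 1 group of 2 replicates and no test. Of 53 alternatives to 11 results, 46 gave a value within 1.5 times a count or 1 SD of a median and 7 did not. None changed sign, which only the median summit position could do, since counts and percentiles cannot be negative. With the stronger 50% of the reproducible peaks the count of called members was 5, of large subunit genes 3 and of small subunit genes 2. With the first gene of the chain added the count was 28. With the strongest peaks of both replicates, an alternative chosen after seeing the data, it was 10. With a 250 bp window 6 members shared their peak with another gene. With 50 bp around the summit in place of 100 bp, TATAAA was found at 0 of the 16 peaks, against 7.31% of the peaks with protein-coding ends and 6.97% of all reproducible peaks. With either replicate alone the count of called members was 13 to 18, of large subunit genes 7 to 10, of small subunit genes 6 to 8 and of members with a summit in the list of 30000 54 to 57. The median summit position was -146 to -129 bp and the median percentile 25.7 to 34.7 within the replicate's own list. The count of operon-like downstream members was 20 with a gap of 200 bp (28.6%, with 10.3% over all protein-coding genes). With 1000 bp it was 32 (45.7%, with 28.7%). A summit at the first gene was found for 10 of the 20 (50%, with 25.6% over all such downstream genes) and for 13 of the 32 (40.6%, with 15.9%). With an overlap of 50%, 8 of the 16 peaks matched a peak among the strongest of both replicates, and 10 with 1 bp (62.5%, 35.4% to 84.8%). With 1 bp the share was 71.3% over the 1560 peaks with protein-coding and no tRNA, snoRNA, snRNA or rRNA ends in reach. No such share is given for the overlap of 50%. The unknown depth and the arbitrary signal scale limit every comparison between lists to ranks.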

Other observations

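A short word recurred at the members' summits. The letters CGCAAAC, on either strand, lay within 100 bp of 8 of the 16 summits at members (50%), against 6.73% of the 1560 peaks with protein-coding and no tRNA, snoRNA, snRNA or rRNA ends in reach and 4.51% of all reproducible peaks. They lay 1 to 37 bp from the summit, at mrpl-28, mrpl-32, mrpl-45, mrpl-49, mrpl-55, mrps-15, mrps-16 and mrps-28. At 5 of the 8, mrpl-28, mrpl-32, mrpl-45, mrps-15 and mrps-16, the match ran over 12 letters, GTCCGCAAACAC (31.2%, against 1.47% and 0.673%), and at mrpl-45, mrps-15 and mrps-16 over 14, GTCCGCAAACACCG (18.8%, against 0.705% and 0.311%). The word of 12 letters has 215 copies on the 6 chromosomes. Another word of 14 letters, GAGCGCACTTGCAA, lay 10 to 34 bp from 3 of the 16 summits, those of mrpl-36, mrpl-45 and the peak shared by mrps-24 and mrpl-1 (18.8%, against 0.256% and 0.129%), and has 56 copies. The longest words in at least 5 and in at least 3 windows, and the rarest word of 7 letters in at least 8, were searched for in these 16 windows after the sequences had been seen. The counts are therefore a description with no test, and no factor is named for the words. The summits of mrpl-28 and mrpl-45 are shown with 60 bp to each side, read as the stretches above, because they hold the 12-letter word. Capitals mark GTCCGCAAACAC and the summit base in the mrpl-28 line. In the mrpl-45 line they mark, in this order, a first CGCAAAC, GTCCGCAAACACCG, in which the summit base lies, and the reverse complement of GAGCGCACTTGCAA.
mrpl-28 (chrII:156051-156171, minus strand): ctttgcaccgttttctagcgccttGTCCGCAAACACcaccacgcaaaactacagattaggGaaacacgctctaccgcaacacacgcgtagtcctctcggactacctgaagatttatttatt
mrpl-45 (chrIII:1202311-1202431, minus strand): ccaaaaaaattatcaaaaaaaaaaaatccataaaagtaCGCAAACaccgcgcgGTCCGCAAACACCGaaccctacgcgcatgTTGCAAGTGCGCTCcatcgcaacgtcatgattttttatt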
